A study of Populus tremula x Populus tremuloides with 6 samples.

Results

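A set of 76 poplar leaf genes stood at least 16-fold higher, and at a level of at least 30 counts per 1e6 reads in loci (CPM), in plants that overexpress MYB117 than in wild-type plants. The members were chosen by their measured values in these same libraries: a gene identifier starting with Potra, a mean of at least 0.1 CPM in wild type, a mean of at least 30 CPM and at least 16 times the wild-type mean in MYB117, and the lowest MYB117 library above the highest wild-type library. The rule took 76 of the 34267 loci with such an identifier and of 37662 loci in all. Their rise is therefore a description of the rule and is not a test. Since gene lengths were not used here, CPM ranks genes by their share of the reads, not by transcripts per cell.

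RNA was sequenced from leaves 7 to 10, counted down from the shoot tip, of 6 hybrid poplars (Populus tremula x Populus tremuloides), 3 wild-type and 3 MYB117-overexpressing plants, all kept in a greenhouse. The transgenic plants derive from leaves of clone INRA 353-38, infected with Agrobacterium tumefaciens GV3101::pMP90 that carried MYB117 in the binary vector pMDC32, a vector known for strong constitutive expression from a viral promoter. Such a promoter is active in most plant cell types. The sources used here do not say which clone the wild-type plants belong to, nor how many independent transformation events the 3 transgenic plants stand for. Reads in loci ranged from 28960403 to 49442174 per library, and 27.0% to 29.6% of the reads of a library fell in no single locus. On the second principal component (23.8% of the variance over tested loci), replicate 1 of both groups lay on one side and the other 4 libraries on the other. As these are whole leaves, more cells of a type and more RNA per cell cannot be told apart.

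MYB117 belongs to the R2R3 MYB transcription factors. In poplar it is known as an activator of anthocyanin synthesis, the branch of flavonoid metabolism that gives leaves red and purple pigments stored in the vacuole. Such factors act together with bHLH and WD40 partners at promoters of the enzymes that build and decorate flavonoids. Identifiers stand in the files without names or products, so which of the 76 are such enzymes, the level of MYB117 itself, and markers of leaf cell types were not analysed here, and no value below checks the labels of the transgenic plants. Only the identifiers of the 2 most abundant members are printed, and the others are called by number, member 1 being the one of highest mean MYB117 level.

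The most abundant member, Potra000539g03787, had 134, 183 and 110 CPM in the wild-type libraries, given here and below in the order of replicates 1 to 3. In the MYB117 libraries, in the same order, it had 8754, 10844 and 11370 CPM. The groups lay far apart: the lowest MYB117 library held 47.9 times the level of the highest wild-type library. Its mean went from 142 ± 37.2 to 10323 ± 1383 CPM (SD, n = 3 each), 72.5-fold, and from place 958 to place 2 among all loci ordered by CPM. The second member, Potra001727g14056, had 55.7, 89.8 and 53.2 CPM in the wild-type libraries and 6325, 8036 and 8098 CPM in the MYB117 libraries. It rose 113-fold in mean, from place 2686 to place 4. In both genes MYB117 replicate 1 was the lowest of its group and wild-type replicate 2 the highest.

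Members 3 to 9 had means of 1474 to 3807 CPM in MYB117. Member 3 had 88.7, 94.0 and 55.7 CPM in wild type and 4375, 3768 and 3277 CPM in MYB117. Member 4, the one with the highest wild-type mean, had 115, 221 and 106 CPM against 2815, 3879 and 4207 CPM. Member 5 had 40.3, 51.3 and 26.6 CPM against 2931, 3282 and 3306 CPM. On unscaled CPM, the highest MYB117 library at these 3 genes was at most 1.49 times the lowest. Wild-type replicate 2 was the highest of its group at each on that scale, an order that at member 3 depends on scaling. Member 6 was less even, with 43.1, 114 and 143 CPM in wild type and 4476, 2101 and 1411 CPM in MYB117, so that replicate 1 was lowest in the one group and highest in the other. Member 7 had 59.7, 92.5 and 68.3 CPM in wild type and 2112, 2567 and 2803 CPM in MYB117. Member 8 had 149, 158 and 75.6 CPM in wild type and 2999, 1783 and 1415 CPM in MYB117, and at 16.2-fold it was among the members nearest to the fold limit. Member 9 differed from the first 8 in its low starting point, with 10.8, 8.61 and 8.15 CPM in wild type and 1659, 1589 and 1175 CPM in MYB117, 160-fold.

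A rise of at least 1000-fold was seen at 3 members, all with a wild-type mean under 1 CPM. Member 10 had 0.760, 0.797 and 1.21 CPM in wild type and 743, 1106 and 1156 CPM in MYB117. Member 14 had 19, 29 and 21 reads in the wild-type libraries and 648, 675 and 708 CPM in MYB117, a rise of 1027-fold. Member 21, the one of largest fold, had 4, 10 and 7 reads in the wild-type libraries and 389, 409 and 446 CPM in MYB117, a rise of 2115-fold. Member 42 had 9, 7 and 5 wild-type reads and 56.8, 89.4 and 87.9 CPM in MYB117, a rise of 373-fold. Member 65 had 1, 7 and 5 wild-type reads and 38.2, 40.01 and 40.9 CPM in MYB117, a rise of 338-fold. Folds of this size rest on few wild-type reads: members 10, 14 and 21 had 98, 69 and 21 over the 3 wild-type libraries. Under 30 such reads were found at 7 members, members 21, 42 and 65 among them. Of the 76 members, 75 had at least 1 read in every wild-type library.

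**Figure D1:**
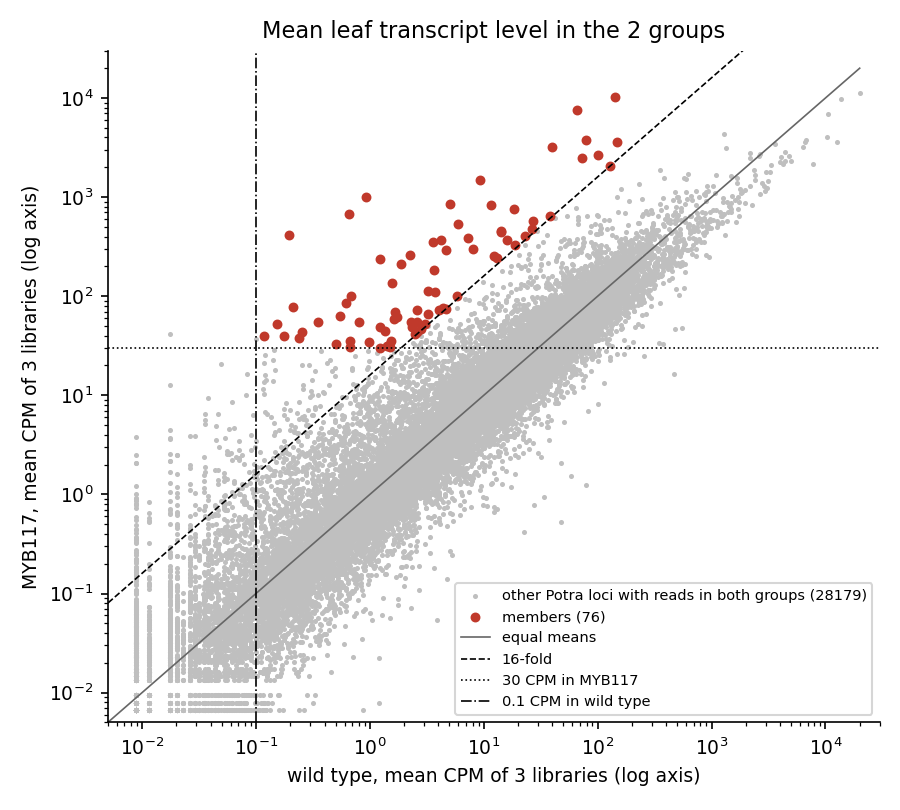
Mean CPM of the 3 wild-type libraries (x, log axis) against mean CPM of the 3 MYB117 libraries (y, log axis) for Potra loci with reads in both groups. Red points are the 76 members, and the lines mark equal means, 16-fold, 30 CPM in MYB117 and 0.1 CPM in wild type; 40 of the members lie above 100 CPM in MYB117.

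Across the 76 genes the wild-type mean ranged from 0.117 to 147 CPM (median 2.70) and the MYB117 mean from 30.2 to 10323 CPM (median 106). In MYB117, 10 members exceeded 1000 CPM, a level that 76 loci reached in all, 40 exceeded 100 CPM, and 36 lay between 30 and 100 CPM. In wild type 0 members were among the 100 most abundant loci and 2 among the 1000 most abundant, whereas in MYB117 4 were among the 10 most abundant loci and 11 among the 100 most abundant. The rule's 16-fold limit by itself keeps out nearly any gene that is among the most abundant in wild type, so this contrast is largely fixed by the rule. The median fold was 36.7, and 44 members rose at least 32-fold, 28 at least 64-fold and 19 at least 100-fold.

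Members under 1 CPM in wild type had the largest median fold, and median levels in MYB117 were higher where the wild-type levels were higher. The 18 members under 1 CPM in wild type had a median of 53.3 CPM in MYB117 and a median fold of 158. The 38 members from 1 to 10 CPM had medians of 72.9 CPM and 31.4-fold, and the 13 members from 10 to 50 CPM had 455 CPM and 21.4-fold. The 7 members above 50 CPM had a median of 3634 CPM and 33.9-fold. A gene of low wild-type level needs a larger fold to reach 30 CPM, and a gene of high wild-type level must reach a high level to rise 16-fold, so the order of these folds and levels is in part fixed by the choice of members.

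**Figure D2:**
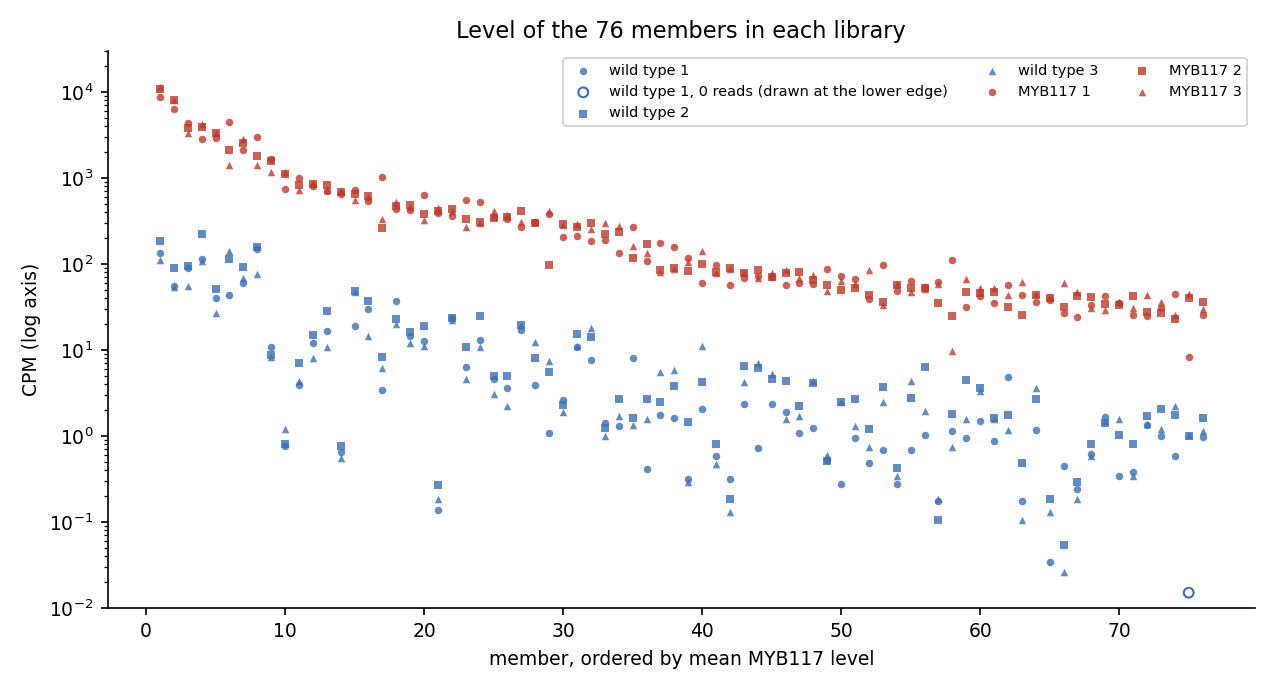
CPM (log axis) of each of the 76 members in each library, ordered by mean MYB117 level; blue marks are wild-type and red marks MYB117 libraries. The open circle is the 1 member with 0 reads in a wild-type library, and the closest approach of the groups is a 5.43-fold gap.

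The rule's limit on the fold of the means sets how far apart the groups lie. The ratio of the lowest MYB117 library to the highest wild-type library ranged from 5.43 to 1463, with a median of 20.6. The rule's demand that every MYB117 library lie above every wild-type library was met by 23.0% of the 26854 loci that passed the count filter of edgeR. It kept out 0 loci that met the other limits. All 76 members passed that filter and all 76 were called higher by edgeR's quasi-likelihood test at an adjusted p below 0.05, against 9.94% of all tested loci; as the same contrast chose them, nothing is read from this.

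The limits on fold, level and wild-type level cut through a continuous range of values. Just inside the fold limit lay genes at 16.1-, 16.2- and 16.6-fold, and just outside it genes at 15.5-, 15.3- and 14.5-fold that met the other limits, one of them at 612 ± 345 CPM in MYB117. Just inside the level limit lay means of 30.2, 30.8 and 30.8 CPM, and just outside it 29.3, 28.9 and 27.9 CPM. At the wild-type limit the lowest members had 0.117, 0.154 and 0.176 CPM, and the 2 genes kept out by it had 0.0993 and 0.0176 CPM. With a limit of 8-fold the rule took 137 genes, so that 61 lay between 8-fold and 16-fold.

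The members nearest to a limit had these values. Nearest to the fold limit, besides member 8, member 44 had 0.725, 6.14 and 7.10 CPM in wild type and 72.03, 83.8 and 68.4 CPM in MYB117, and member 64 had 1.17, 2.71 and 3.58 CPM against 36.01, 43.5 and 44.4 CPM. In both, wild-type replicate 1 was the lowest of its group. Nearest to the level limit, member 76 had 0.967, 1.62 and 1.13 CPM against 25.2, 35.8 and 29.7 CPM, and member 74 had 0.587, 1.73 and 2.21 CPM against 44.4, 22.7 and 25.3 CPM. Member 75, with 0, 0.983 and 1.03 CPM in wild type, is the one with no read in a wild-type library. Nearest to the wild-type limit, besides member 65, member 57 had 5, 4 and 7 wild-type reads and 62.2, 35.4 and 58.0 CPM in MYB117. Member 66 had 13, 2 and 1 wild-type reads and 26.6, 31.2 and 60.6 CPM, so most of its wild-type reads came from replicate 1. The gap between the groups was narrowest at member 40, with 2.04, 4.23 and 11.1 CPM in wild type and 60.4, 100.04 and 141 CPM in MYB117, followed by member 58 and by member 62, with 4.83, 1.73 and 1.18 CPM against 57.2, 31.1 and 43.6 CPM.

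The rule was also applied with 1 library of each group left out, and the rise was read in the left-out libraries. When the rule was applied without the libraries numbered 1, it took 63 loci, and all 63 were higher in MYB117 replicate 1 than in wild-type replicate 1, 58 of them at least 16-fold. Their median fold was 74.8 in the left-out libraries, leaving out 1 locus with no read in that wild-type library, and 40.7 in the 4 that chose them. Without the libraries numbered 2 it took 82 loci, of which 82 were higher in the left-out pair and 58 at least 16-fold, with a median fold of 23.6 against 39.6 in the choosing libraries. Without the libraries numbered 3 it took 86 loci, of which 85 were higher, 1 was at 0.818-fold and 53 at least 16-fold, with a median of 27.1 against 33.4. Over the 3 left-out pairs, 58 of 63, 58 of 82 and 53 of 86 loci passed the full 16-fold. The share of all tested loci that were higher in each left-out pair was not computed. These counts therefore have no background to be read against, and nothing is concluded from them. The limits of the rule were set with earlier results of these data known. The transgenic plants may also not be independent transformation events. Of the loci taken without the libraries numbered 1, 2 or 3, in that order, 61, 70 and 67 were among the 76 members. The members had been chosen with the left-out libraries included. The counts are therefore a description and not a test of the rise.

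The members together took up a similar share of the unscaled reads in loci in each MYB117 library although single genes varied. In wild type they held 0.0991%, 0.145% and 0.0987% of the reads in loci, by replicate. In MYB117 they held 5.12%, 5.17% and 5.13%, or 3.60%, 3.71% and 3.74% of all reads. The TMM factors of these 3 libraries, 0.966, 1.07 and 1.07, were not applied to the shares, so their evenness holds for unscaled reads only. The mean share was 0.114% ± 0.0265 in wild type and 5.14% ± 0.0243 in MYB117 (n = 3 each). The 2 most abundant members alone held 1.51%, 1.89% and 1.95% of the MYB117 reads, so they were lowest in replicate 1, while the other 67 members after the first 9 held 1.47%, 1.38% and 1.42% and were highest there. In wild type the 2 genes made up 18.2% ± 1.43 of the members' reads, and in MYB117 34.7% ± 4.55.

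**Figure D3:**
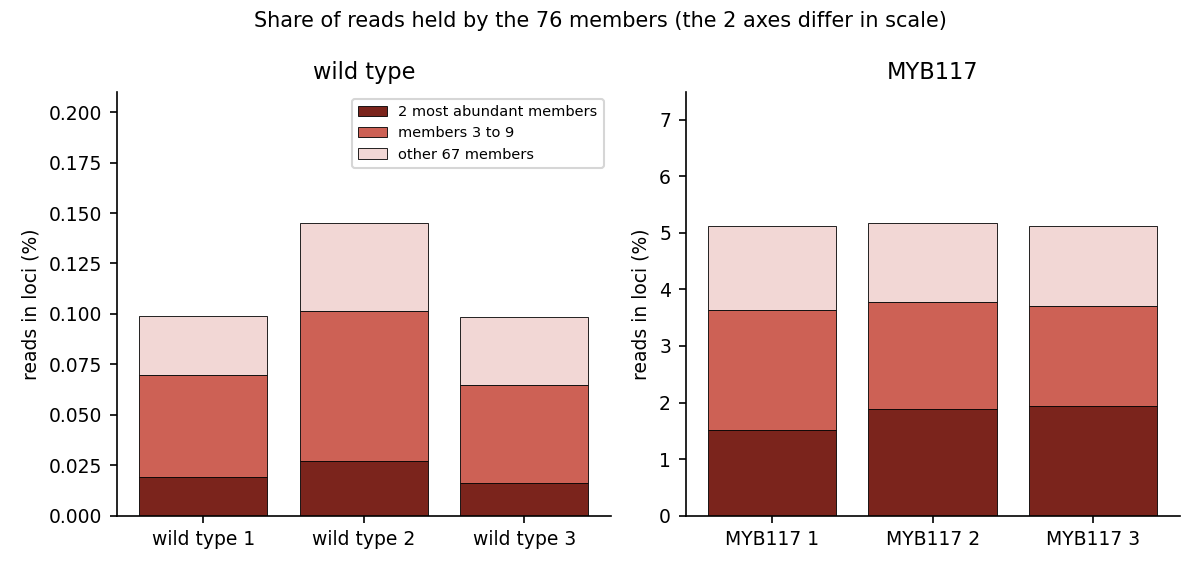
Percent of reads in loci held by the 76 members in each library, as stacked bars for the 2 most abundant members, members 3 to 9 and the other 67; the wild-type and MYB117 panels have different scales. The MYB117 bars reach 5.12% to 5.17% and the wild-type bars 0.0987% to 0.145%.

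Spread among the 3 MYB117 plants was not used by the rule beyond the mean and the lowest library. The median coefficient of variation (SD over mean) of a member was 18.03%, against 13.9% for the 6706 other tested loci of at least 30 CPM in MYB117 and 21.9% for the 61 genes between 8-fold and 16-fold. At 44 members the highest MYB117 library was under 1.5 times the lowest, and at 16 it was over 2 times. Member 28, the evenest on unscaled CPM, had 307, 294 and 306 CPM (coefficient of variation 2.32%), although its wild-type values were 3.87, 8.08 and 12.4 CPM. Which member is the evenest depends on scaling. Member 58, the least even, had 112, 24.9 and 9.78 CPM in MYB117 (113%) and 1.14, 1.78 and 0.737 CPM in wild type. Its MYB117 mean was 48.9 CPM with the 3 plants and 17.4 CPM without replicate 1. Without its highest MYB117 library, 11 members fell under 16-fold and 8 under 30 CPM.

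MYB117 replicate 1 differed from the other two plants in both directions. On unscaled CPM, replicate 1 stood over 1.5 times above the mean of replicates 2 and 3 at 15 members (19.7%) and over 1.5 times below it at 9 (11.8%). Over the 6706 other loci these shares were 7.01% and 14.1%, and over the 61 genes between 8-fold and 16-fold 24.6% and 8.20%. Member 17 had 1031 CPM in replicate 1 against 257 and 329 CPM, and member 75 had 8.18 CPM against 39.5 and 44.6 CPM. Member 29 set another plant apart, with 378, 95.7 and 407 CPM. The quartiles of the log2 ratio of replicate 1 to the other two were -0.43 and 0.36 over the members (median -0.11), against -0.41 and 0.06 over the 6706 other loci (median -0.19) and -0.23 and 0.55 over the 61 genes between 8-fold and 16-fold (median -0.03). The distance between the quartiles was thus 0.79 over the members and 0.78 over the latter. The medians of the members and the 6706 loci depend on scaling, at 0.03 and -0.05 with TMM-scaled CPM, but the distance between the quartiles did not, at 0.79 and 0.47 on either scale. The balance of above and below depends on scaling too. Replicate 1 was the highest MYB117 library at 27 members and the lowest at 41 on unscaled CPM, and at 32 and 30 with TMM-scaled CPM. These ranges were not tested, since genes are not independent replicates.

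**Figure D4:**
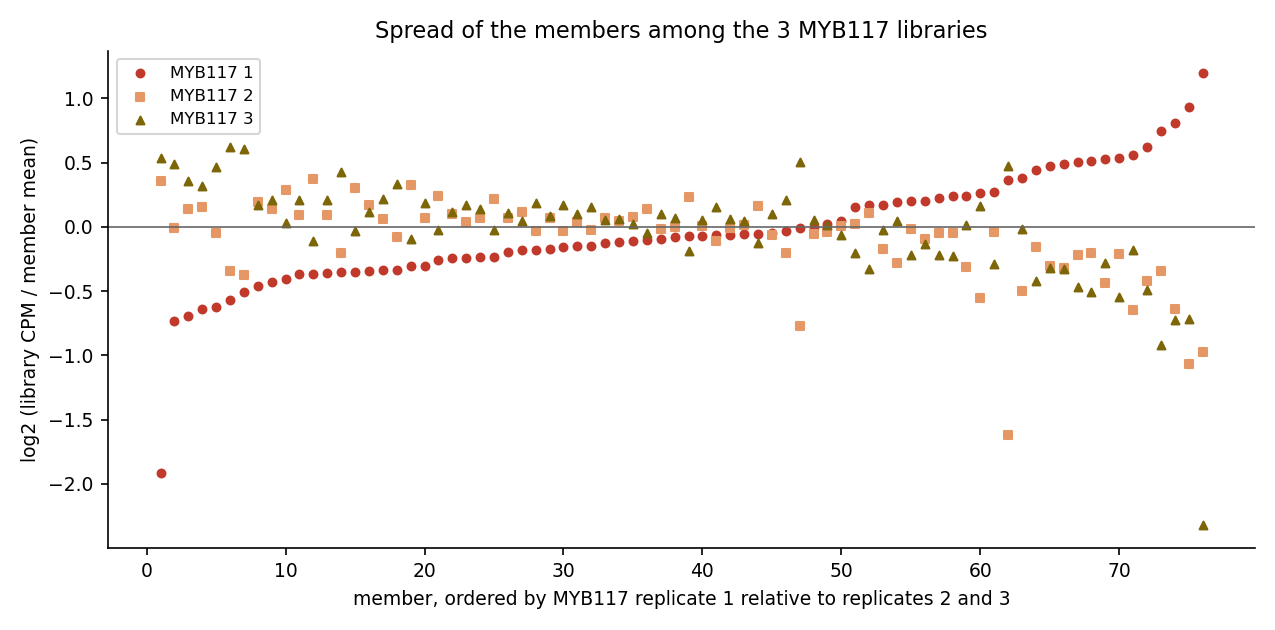
Log2 ratio of each MYB117 library to the member's mean over the 3 libraries, for the 76 members ordered by replicate 1 relative to replicates 2 and 3. On unscaled CPM, replicate 1 is over 1.5 times above the mean of replicates 2 and 3 at 15 members and over 1.5 times below it at 9.

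The wild-type plants also differed from each other. Wild-type replicate 2 was the highest library at 47 of the 76 members (61.8%) at 40.7% of the 6706 other loci and at 50.8% of the 61 genes between 8-fold and 16-fold. With TMM-scaled CPM it was the highest at 48.7% of the members and 20.4% of the 6706 loci. The median coefficient of variation among wild-type libraries was 40.8% over the members, 40.7% over the 61 genes between 8-fold and 16-fold and 19.6% over the 6706 loci. The last had a median wild-type level of 53.5 CPM and the members one of 2.70 CPM; the part of that lower level in the spread was not tested. Over the 75 members with reads in every wild-type library, the log2 ratio of replicate 1 to replicates 2 and 3 in MYB117 had a Pearson correlation of -0.08 with that in wild type, and over 6705 other loci of at least 30 CPM it was 0.44. Both are across genes of the same 6 libraries and are given as descriptions.

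Each identifier of a member stood on 1 locus, so no member had a second locus to compare. Locus numbers follow position at least roughly, since 75.4% of neighbouring Potra loci share the part of the identifier before the letter g. By that part, 2 pairs of members were together, both with consecutive locus numbers. In the first pair member 15 had 712, 648 and 554 CPM in MYB117 and member 55 had 63.7, 52.7 and 46.9 CPM, with the same order of plants. In the second pair member 38 had 155, 88.4 and 88.0 CPM and member 68 had 33.4, 41.3 and 30.8 CPM, with a different order. At 22 members (28.9%) the first part of the identifier occurred on no other locus, against 14.9% of all Potra loci.

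Among genes listed next to a member, the share called higher was near that of all tested loci. Of the 148 loci that were 1 step away from a member and not members themselves, 98 were tested, and 8 were called higher (8.16%) and 10 lower (10.2%), against 9.94% and 7.19% of all tested loci (edgeR). Of the 148, 60 do not share the first part of the identifier with the member; 3 of the 38 tested ones were called higher, and 5 of the 60 tested ones that share it. The median log2 fold change of the 98 was -0.17, against -0.06 over all tested loci. Up to 3 steps away, 31 of 302 tested loci were called higher (10.3%). The locus beside member 17 went from 0.160 ± 0.117 to 2.39 ± 0.145 CPM (log2 fold change 3.81, adjusted p = 0.012, edgeR), and the locus beside member 6 from 105 ± 18.03 to 285 ± 114 CPM (log2 fold change 1.35, adjusted p = 0.022, edgeR). The locus beside member 10, which itself rose 1086-fold, went the other way, from 172 ± 85.3 to 64.6 ± 25.8 CPM (log2 fold change -1.49, adjusted p = 0.044, edgeR). The first part of the identifier is shared with the member at the locus beside member 10 but not at the other two. These 3 were picked after their values were seen. The count of 8 was 4, 3 or 3 without MYB117 replicate 1, 2 or 3 and 5 without wild-type replicate 2, and 15 with DESeq2.

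**Figure D5:**
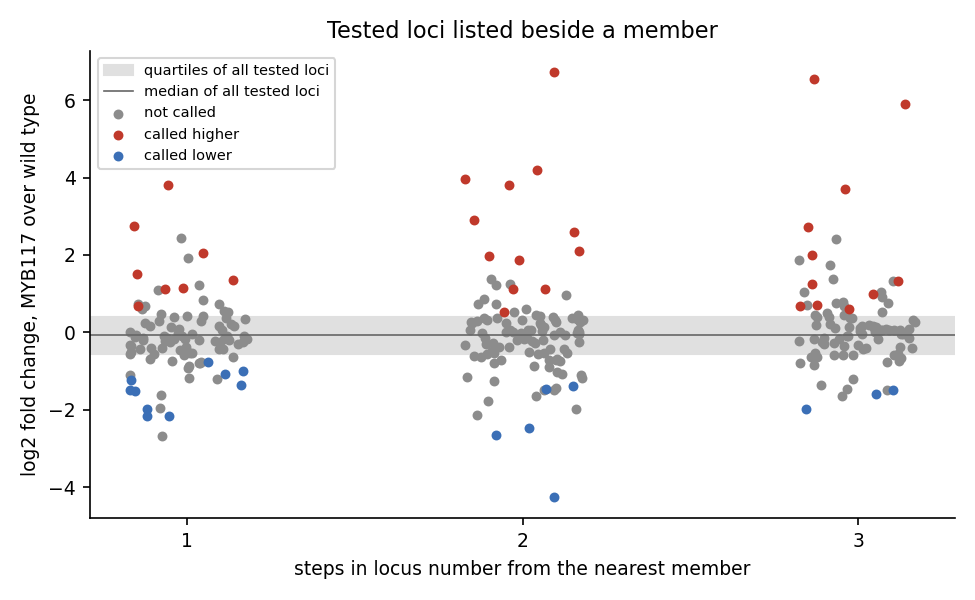
Log2 fold change (MYB117 over wild type, edgeR) of tested loci 1, 2 or 3 steps in locus number from the nearest member; red and blue points are loci called higher and lower, the grey band spans the quartiles of all tested loci and the points are spread sideways for legibility. At 1 step 8 loci were called higher and 10 lower.

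Falls of the same kind were rarer. With the groups exchanged, the same limits took 6 genes, with wild-type means of 34.1 to 468 CPM and falls of up to 89.9-fold, and together these held 0.0736% of the wild-type reads.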

How the data were processed

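The deposited values are raw read counts per locus, whole numbers with no normalization by the authors. Per the submitters' processing notes, the tools were HISAT2 2.1.0, Cufflinks and HTSeq 0.6.1. The sources used here name no genome build, annotation or strand setting, so near-identical copies and overlapping genes are uncertain. The last 5 rows, reads in no single locus, entered neither library sizes nor tests. CPM were computed from the counts without further scaling. All loci were tested with edgeR 4.0.16 (R 4.3.3): TMM scaling, the expression filter (minimum count 10, total 15), quasi-likelihood F test, two-sided, Benjamini-Hochberg adjustment over 26854 loci, no covariate. The script was checked on simulated counts. DESeq2 1.42.0, RLE scaling, no count filter, a replicate block, and leaving out single libraries were alternatives. Members and lists were chosen with earlier results of these data known. Described in full were the 10 members of highest MYB117 level, the 5 of largest fold, those nearest each limit and those of extreme spread; others in the text were picked after their values were seen. Lists of flavonoid, lignin and cell type genes could not be matched to identifiers. P-values set the difference between the groups against the spread between 3 plants a group, which edgeR moderates across genes. As the number of transformation events is not known, that spread may not be one between independent events.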

Additional observations from a re-analysis of the deposited data

Results flagged for a closer look

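Outside the 76, 12 loci met every limit of the rule except the identifier, and all of them carry no gene identifier at all. They had MYB117 means of 37.5 to 297 CPM, wild-type means of at most 10.3 CPM and rises of 16.5-fold to 156-fold. Together they held 0.159% ± 0.00616 of the MYB117 reads and 0.00421% ± 0.000973 of the wild-type reads (n = 3 each). They were flagged as a signal in loci that the comparisons above leave out, and they are chosen on the same values, so no test is given.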

How the results depend on the processing

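The number of members, 76, was 71 with TMM-scaled or RLE-scaled CPM (70 shared in each) and 61 with CPM over all reads. It was 137 with 8-fold, 44 with 32-fold, 118 with 10 CPM and 40 with 100 CPM as the limit, and 63 to 84 with 1 library left out, the lowest without wild-type replicate 1. The median log2 fold of the 76, 5.20, was 4.95 to 5.44 with 1 library left out and 5.01 without both libraries numbered 1. The members' share of MYB117 reads was 3.68% of all reads, unassigned ones included, and 5.12% to 5.15% with 1 library left out. The median log2 ratio of MYB117 replicate 1, -0.11, was 0.034 with TMM scaling. Loci called higher numbered 1236 to 2839 and loci called lower 316 to 2273 with 1 library left out; DESeq2 called 3390 lower. Loci beside a member called higher numbered 3 to 8 with 1 library left out, 15 with DESeq2, 31 up to 3 steps away and 5 where the first part of the identifier was shared. The causes were not tested. With the replicate block 2570 loci were higher and 2067 lower, and 8 beside a member were higher. Same-numbered libraries correlated in their deviations at 0.44, 0.20 and 0.08. Wild-type replicates 1 and 2 each correlated best with the MYB117 library of the same number, and wild-type replicate 3 with MYB117 replicate 2 (0.48). The numbers were not taken as pairs outside the replicate block, and what same-numbered libraries share was not tested. The fits without both libraries numbered 1, the shared-identifier neighbours and the left-out pairs were added after seeing the data. Low wild-type counts limit the precision of folds at the members with few wild-type reads.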
